A study of Homo sapiens with 4 samples.

Results

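Chromosome 19 carries the largest collection of C2H2 zinc finger genes in the human genome, and their transcripts were examined in SK-N-SH neuroblastoma cells with and without added AP1AR-DT. A gene was a member when its symbol in the table of counts was ZNF, a number and at most 1 further letter, and when the table placed it on chromosome 19. This gave 246 of the 24014 genes, under 244 symbols, because ZNF177 and ZNF223 each stood in the table with 2 gene IDs. The rule itself used no measured value, although earlier results of these data were known when it was set. Of the 246 genes, 236 were annotated as protein coding and 10 as pseudogenes or non-coding RNAs.

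SK-N-SH is a human neuroblastoma line that in culture is a mix of adrenergic cells, which resemble neuroblasts, and mesenchymal cells, which adhere to the substrate. RNA was sequenced from cells given an empty lentiviral vector, labelled wild type (control, 2 libraries), and from cells given the same kind of vector with AP1AR-DT, a long non-coding RNA (AP1AR-DT_OE, 2 libraries). The comparison asks which transcripts change when this RNA, which the study relates to bipolar disorder, is raised. AP1AR-DT is AC109347.1 in the labels, but AP1AR-DT_OE 2 has AC109347.2 under genotype and treatment where its title has AC109347.1, and the title was followed. The labels do not say whether the 2 libraries of a group came from separate cultures, so p-values measure the spread between these libraries, which may be technical. All 4 libraries come from vector-treated cells of 1 tumour line, and cells without a vector were not analysed here.

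A C2H2 zinc finger is a short fold in which a pair of cysteines and a pair of histidines hold a zinc ion, and an array of such fingers reads a stretch of DNA. Many zinc finger proteins of chromosome 19 also carry a KRAB domain, which recruits the co-repressor TRIM28 and, through it, the histone methyltransferase SETDB1, and so brings heterochromatin to the bound site. The genes arose by repeated tandem duplication and stand in clusters, and many of the proteins bind transposable elements. Their transcripts are usually scarce, so single genes are read from few counts.

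The libraries held between 21988065 and 26184599 counts. The members took between 0.261% and 0.289% of each. As a check of the labels, AP1AR-DT itself had 3 counts in control 1, 18 in control 2, 680 in AP1AR-DT_OE 1 and 1065 in AP1AR-DT_OE 2 (log2 fold change 6.63, SE = 0.64, adjusted p = 3.64e-21, DESeq2). Adrenergic markers were present (7 reached a mean normalized read count of 50), their summed normalized read count lay between 24078 and 29800, and none was called different between the groups. All 9 mesenchymal markers had a mean of at least 50, their sum lay between 146093 and 204505, and none was called. PRRX1 had 2770 in control 1, 11358 in control 2, 1241 in AP1AR-DT_OE 1 and 2246 in AP1AR-DT_OE 2. Both AP1AR-DT_OE libraries lay under both controls (log2 fold change -2.02, SE = 0.61, adjusted p = 0.431, DESeq2), and control 2 was far above the rest. Of 6 markers of blood, epithelial, liver, vascular and glial cells 2 were measured, with a summed normalized read count between 21.8 and 53.5. In cultures that hold more than 1 cell type, fewer cells of a type and less RNA per cell cannot be told apart.

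Most of the family was detected at a low level and a few members were abundant. Normalized read counts are counts divided by a size factor for each library. Over the 4 libraries their mean had a median of 40.1 across members and ran from 0.579 to 10043. It lay under 12 in 38 members, from 12 to 50 in 102, from 50 to 100 in 39, from 100 to 1000 in 54, and at 1000 or above in 13. An observation of 0 allows up to 3 read pairs, or 12 counts, in a library, for counting error only. By this floor 152 members were above it in all 4 libraries and 18 were at or under it in all 4, while 38 had a count of 0 in at least 1 library. To compare genes of different size, the normalized read count was divided by the length of the gene's exons. The median level was 7.25 per kilobase, with a range from 0.130 to 4821. The median was 22.3 per kilobase for 249 ZNF genes on other chromosomes, 60.0 for 1376 other genes of chromosome 19 and 23.3 for all genes.

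**Figure D1:**
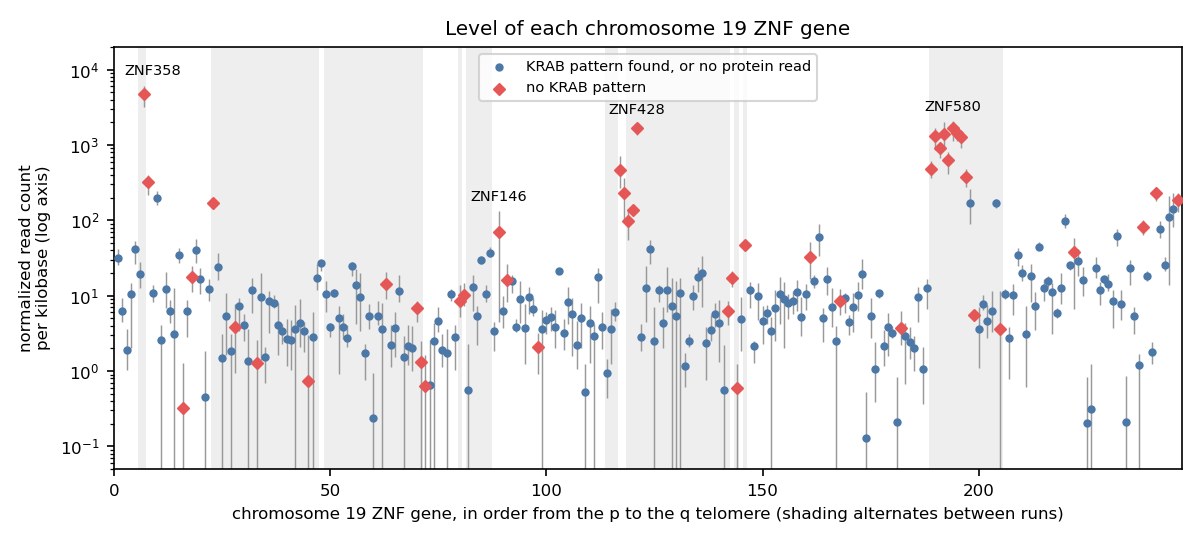
Level of the 246 ZNF genes in their order along chromosome 19, as normalized read count per kilobase on a log axis. Points are means of 4 libraries, vertical lines span the lowest and the highest library (lines that reach the lower edge include a library with a count of 0 or a level under the axis), and shading alternates between positional runs; the most abundant genes, ZNF358, ZNF428 and the group around ZNF580, have no KRAB pattern.

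The 8 most abundant members held 56.1% of the members' summed normalized read counts and 68.9% of their summed level per kilobase. ZNF358 (ENSG00000198816; chromosome 19, 7515292 to 7521025, GRCh38, band p13.2) was highest at 4821 per kilobase. Its normalized read count was 12709 and 6692 in control 1 and control 2, and 12058 and 8713 in AP1AR-DT_OE 1 and AP1AR-DT_OE 2. The order was the same in both groups, with number 1 above number 2, and the groups overlapped. ZNF358 shares exon sequence with another gene on the same strand, as do ZNF580 and ZNF581 with each other, so part of their level may belong to the partner.

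After ZNF358 came ZNF428 (1698 per kilobase), ZNF580 (1663), ZNF581 (1444), ZNF865 (1398), ZNF579 (1317), ZNF787 (1267) and ZNF524 (912). ZNF580 is known as a zinc finger gene induced by low-density lipoprotein in endothelial cells, and its normalized read count was 5361 in control 1, 2962 in control 2, 5171 in AP1AR-DT_OE 1 and 3826 in AP1AR-DT_OE 2. ZNF865 had 7502 and 3332 in control 1 and control 2, and 5895 and 4315 in AP1AR-DT_OE 1 and AP1AR-DT_OE 2. In both genes, as in ZNF579, ZNF787, ZNF524 and ZNF581, control 1 was the highest library and control 2 the lowest. ZNF428 (chromosome 19, 43607224 to 43619629), whose protein held 1 finger by the pattern, had 2771 in control 1, 2104 in control 2, 2897 in AP1AR-DT_OE 1 and 2775 in AP1AR-DT_OE 2. Neighbours in this order from ZNF580 to ZNF787 overlapped over the 4 libraries, whereas every library of ZNF358 was above every library of the other 7 in level per kilobase.

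**Figure D2:**
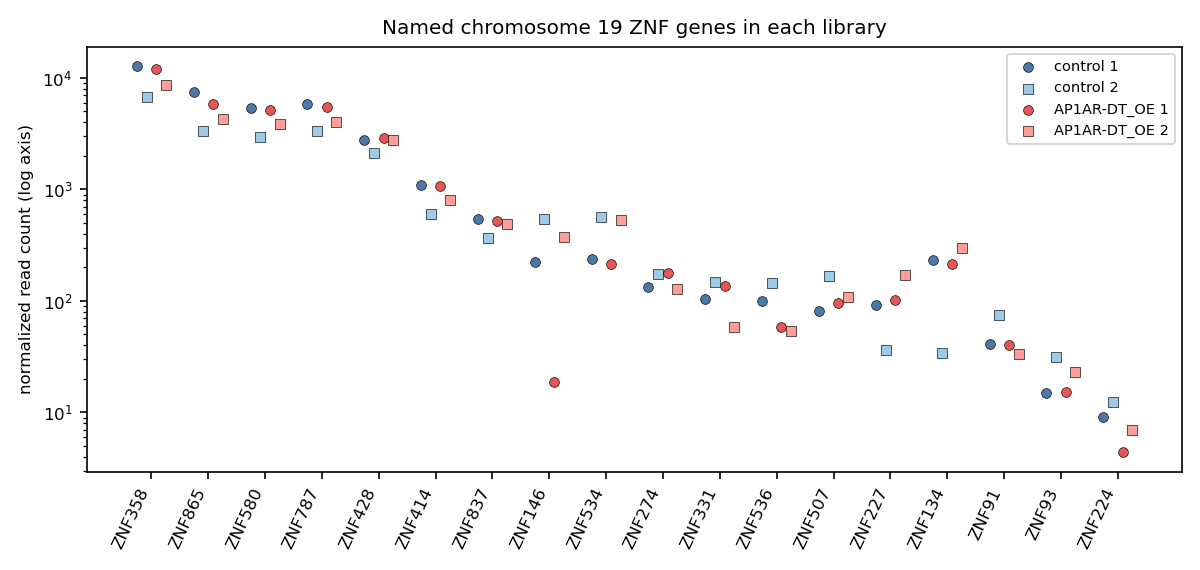
Normalized read counts, on a log axis, of 18 named members in each of the 4 libraries (circles, replicate number 1; squares, replicate number 2). The abundant genes at the left lie lower in number 2, and ZNF146 has 1 library, AP1AR-DT_OE 1 at 18.6, far under the other 3.

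Along the chromosome, members whose neighbours lay within 500 kb were joined, which gave 21 runs. The 11 runs with at least 5 members held 232 of the 246. The largest, with 42 members from ZNF175 to ZNF331 (chromosome 19, 51571283 to 53580269, bands q13.41 to q13.42), had a median level of 7.01 per kilobase. The run of 41 members at the end of the long arm, from ZNF264 to ZNF446 (57191500 to 58481230, band q13.43), had a median of 16.3. Between them lay 17 members from ZNF628 to ZNF835 (55476617 to 56671783), and their median was 377.8 per kilobase.

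That run of 17 held 6 of the 8 most abundant members, and 5 of its 16 members with a translated sequence had a KRAB pattern. The remaining large runs had low medians. They were 4.86 per kilobase in 26 members from ZNF565 to ZNF573 (36182276 to 37817300), 3.87 in 25 from ZNF653 to ZNF791 (11483427 to 12640098), 6.80 in 24 from ZNF575 to ZNF180 (43525497 to 44500524) and 3.88 in 23 from ZNF101 to ZNF257 (19668796 to 22091480). The lowest median among the 11 was 2.20, in 8 members from ZNF492 to ZNF254 near the centromere (22634324 to 24129968, band p12), a run that contains ZNF91.

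The highest member of each of the 11 runs was named. ZNF653, which is known to repress the nuclear receptor SF-1, was highest in its run at 169.9 per kilobase. Its normalized read count was 571 and 453 in control 1 and control 2, and 645 and 518 in AP1AR-DT_OE 1 and AP1AR-DT_OE 2. In the 42-member run the highest was ZNF534 at 60.7 per kilobase, with 239 in control 1, 562 in control 2, 215 in AP1AR-DT_OE 1 and 531 in AP1AR-DT_OE 2. For ZNF534 both number 2 libraries were far above the number 1 libraries, the opposite of the abundant genes above. The highest members of the other runs were ZNF77 (42.0 per kilobase), ZNF414 (324.0), ZNF90 (24.7), ZNF726 (10.6), ZNF792 (36.9), ZNF146 (70.3) and ZNF837 (234.2), besides ZNF428 and ZNF580.

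The level went with the make-up of the protein and with the base composition of the transcript. Coding sequences could be translated for 235 members, and the finger pattern (cysteine, 2 to 4 residues, cysteine, 12 residues, histidine, 3 to 5 residues, histidine) was found between 1 and 32 times, with a median of 12 and the highest number in ZNF91. A strict letter pattern of the KRAB A-box was found in 158 members, a looser pattern in 191, and neither in 44. The median level was 6.22 per kilobase with the strict pattern, 6.36 with the looser and 42.6 with neither. It was 138.8 per kilobase in 19 members with under 7 fingers, 8.33 in 126 with 7 to 13, and 5.61 in 90 with 14 or more.

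Those groups differed in base composition too. The median GC content of the longest transcript was 42.1% with the strict KRAB pattern and 51.4% with neither pattern, and 59.6% in members with under 7 fingers, against 42.3% over all members (range 33.9% to 70.9%) and 48.3% over all genes. By GC content alone, the median level was 3.70 per kilobase in 68 members under 40%, 8.47 in 145 from 40% to 50% and 183.8 in 33 at 50% or above. The size of this contrast varied with the library. In control 1, control 2, AP1AR-DT_OE 1 and AP1AR-DT_OE 2 the median was 2.50, 6.45, 2.53 and 4.27 under 40%. At 50% or above it was 233.9, 140.8, 208.9 and 163.6. Across the 246 members Spearman's rho of level with GC content was 0.50, and across 235 it was -0.21 with the number of fingers. These are correlations across genes, which share the same 4 libraries and, within runs, a common origin.

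The difference in base composition can be read in the fingers themselves. The coding sequence of 1 finger and the linker after it is shown for the 3 members of lowest and the 3 of highest transcript GC content among those whose mean normalized read count reached 50. Sequences run 5′ to 3′ on the coding strand, from GENCODE v44 transcripts on GRCh37, and capitals mark the codons of the zinc-binding cysteines and histidines. The low-GC members come first.
ZNF260: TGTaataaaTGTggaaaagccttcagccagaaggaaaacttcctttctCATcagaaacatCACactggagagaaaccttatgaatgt
ZNF90: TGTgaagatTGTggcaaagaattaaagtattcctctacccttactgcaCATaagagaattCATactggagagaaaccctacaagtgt
ZNF43: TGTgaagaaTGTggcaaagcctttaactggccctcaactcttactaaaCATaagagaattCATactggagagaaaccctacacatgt
ZNF837: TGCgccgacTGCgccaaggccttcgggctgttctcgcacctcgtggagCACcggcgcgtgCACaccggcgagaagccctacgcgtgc
ZNF787: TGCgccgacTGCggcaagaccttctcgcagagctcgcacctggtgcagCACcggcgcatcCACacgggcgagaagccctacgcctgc
ZNF865: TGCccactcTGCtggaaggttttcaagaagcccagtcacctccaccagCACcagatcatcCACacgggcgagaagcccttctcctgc
The stretches encode the same fold. Their GC content was 37.9% in ZNF260 and ZNF90 and 40.2% in ZNF43, and 71.3% in ZNF837, 69.0% in ZNF787 and 58.6% in ZNF865. In these stretches every zinc-binding cysteine was written TGT in the low-GC members and TGC in the high-GC members. Among the 202 members with such a stretch the median was 40.2%, with a range from 32.2% to 71.3%.

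Between libraries of the same group the members' ratios varied with their GC content. Among the 106 members with a mean of at least 50, the median log2 ratio of normalized read counts was 0.47 for control 2 over control 1, with 69 above 0, and 0.18 for AP1AR-DT_OE 2 over AP1AR-DT_OE 1, with 61 above 0. The same medians were -0.05 and -0.03 over all genes, -0.14 and -0.10 over ZNF genes on other chromosomes, and -0.66 and -0.30 over other genes of chromosome 19. In the 37 members with a mean of at least 200, whose median GC content was 57.8%, the medians had the opposite sign, -0.59 and -0.30, with 11 above 0 in each. Within a band of GC content the control medians at a mean of at least 50 and of at least 200 were alike. They were 0.65 and 0.75 from 40% to 50%, and -0.76 and -0.83 at 50% or above. Across the 106 members the ratio fell with GC content, with Spearman's rho = -0.74 in the controls and -0.57 in the AP1AR-DT_OE libraries, where all genes gave -0.77 and -0.65. Each of these ratios compares 1 library with 1 library and has no test.

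**Figure D3:**
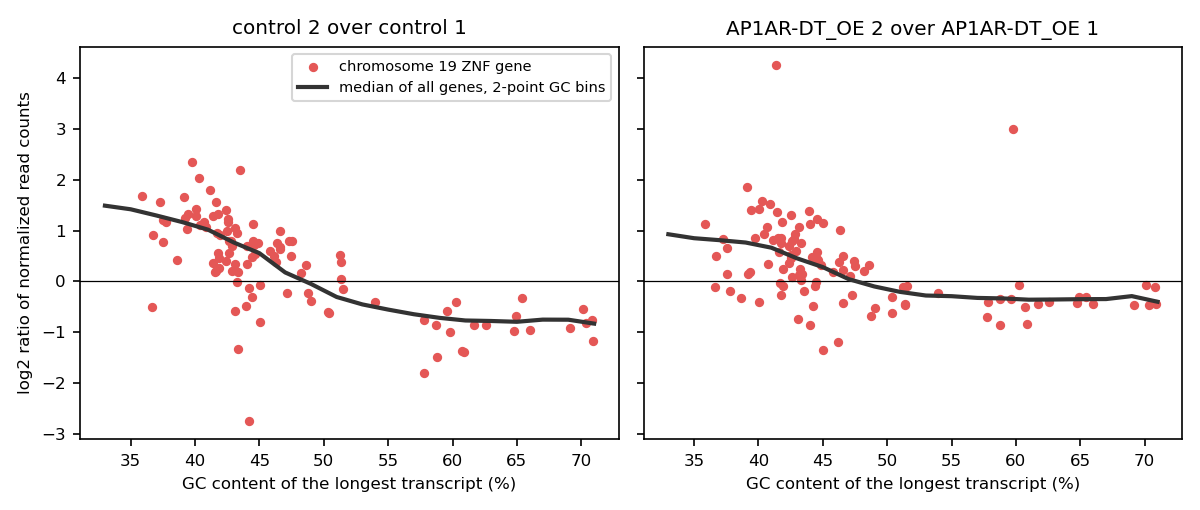
Log2 ratio of normalized read counts between the 2 libraries of a group against the GC content of the longest transcript (%), for the 106 chromosome 19 ZNF genes with a mean of at least 50 (red points) and the median of all genes in GC bins that hold at least 20 genes (dark line). The points follow the line from above 0 at low GC content to below 0 at high GC content, with ZNF134 low at -2.75 in the controls and ZNF146 high at 4.27 in the AP1AR-DT_OE libraries.

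Over all 246 members the median log2 ratio of control 2 over control 1 was 0.79, against 0 for all genes, and within a band of GC content the medians were closer. For control 2 over control 1, members under 40% had a median log2 ratio of 1.30 against 1.20 for all such genes, those from 40% to 50% had 0.79 against 0.52, and those at 50% or above had -0.69 against -0.54. After the trend with GC content had been taken out of each library, the median over the 106 members was 0.038 in the controls and 0.019 in the AP1AR-DT_OE libraries. ZNF260 and ZNF43, from the low-GC end, had ratios of 1.69 and 0.92 in the controls, but ZNF90 had -0.51. ZNF837, ZNF787 and ZNF865 had -0.55, -0.81 and -1.17.

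The extreme members of this ratio were named on both sides. ZNF486 had 18.2 and 97.2 in control 1 and control 2, and 43.9 and 80.4 in AP1AR-DT_OE 1 and AP1AR-DT_OE 2. ZNF773 had 25.1 in control 1, 118 in control 2, 121 in AP1AR-DT_OE 1 and 105 in AP1AR-DT_OE 2, and 25.4% of its exon windows of 150 bases also occur in another gene. ZNF432 had 25.1 and 106 in control 1 and control 2, and 29.6 and 90.3 in AP1AR-DT_OE 1 and AP1AR-DT_OE 2. All 3 had their lowest value in control 1.

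In the other direction, ZNF526 had 1536 in control 1, 437 in control 2, 1174 in AP1AR-DT_OE 1 and 719 in AP1AR-DT_OE 2. ZNF324 had 1288 and 456 in control 1 and control 2, and 959.8 and 530.0 in AP1AR-DT_OE 1 and AP1AR-DT_OE 2. Both were highest in control 1 and lowest in control 2. ZNF134, with a GC content of 44.2%, had 235 in control 1, 33.9 in control 2, 213 in AP1AR-DT_OE 1 and 296 in AP1AR-DT_OE 2, so that control 2 stood apart from the other 3 libraries.

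Between the groups, few members differed. Of the 246 members 0 were called higher and 2 lower in AP1AR-DT_OE at an adjusted p under 0.05, a share of 0.813%, where 33 of all 24014 genes, or 0.137%, were called. Those 2 were ZNF490 and the ZNF223 entry ENSG00000267022. The whole table gave 0.0833% called higher and 0.0541% called lower. At an unadjusted p under 0.05 there were 3 members, and 0.816% of all genes. In fits without 1 library the group left with 1 has no spread of its own, and it was taken to vary like the other group. Calls from such fits were not counted over the members, and the fits are given below for single genes. edgeR's quasi-likelihood test called 0 of the 216 members it tested (2 at an unadjusted p under 0.05), and it called 0 over all genes. Its fitted log2 fold changes were -8.29 for ZNF490 and -8.82 for the ZNF223 entry. When the replicate number entered as a block, DESeq2 called 0 members (4 at an unadjusted p under 0.05), where 0.154% of all genes were called. With the block edgeR called 1 member (11 at an unadjusted p under 0.05), where 0.258% of the 17027 genes it tested were called. DESeq2 after the GC correction, without the block, called 2, where 0.229% of all genes were.

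**Figure D4:**
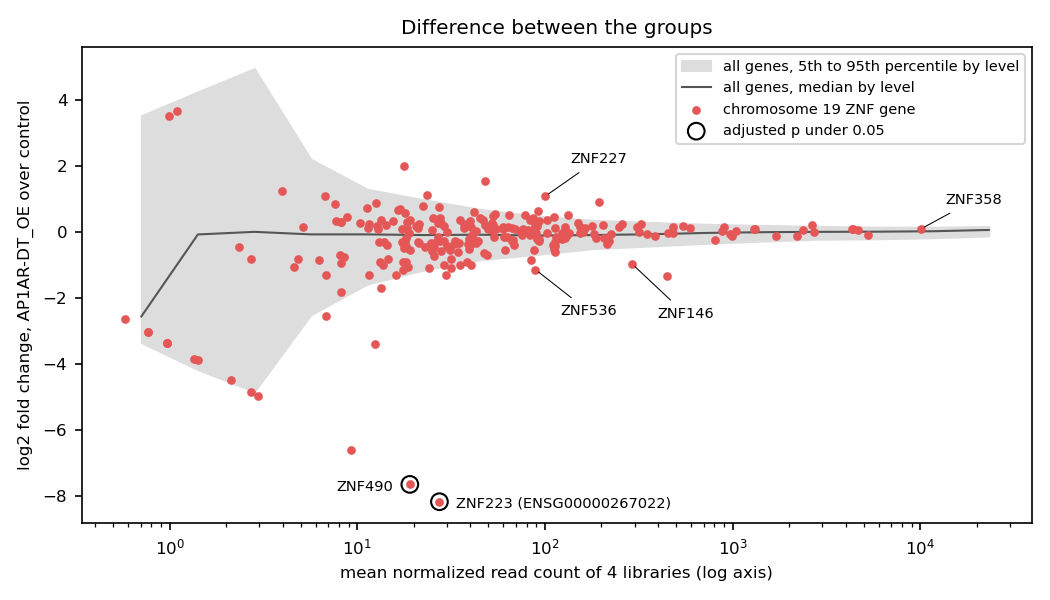
Log2 fold change of AP1AR-DT_OE over control for the 246 members against their mean normalized read count (log axis), with the median and the 5th to 95th percentile of all genes at each level. The 2 called members (circled) have means under 50, and the members with larger means lie mostly inside the band.

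ZNF490 (ENSG00000188033; chromosome 19, 12576100 to 12640098, GRCh38, band p13.13) had counts of 31 and 53 in the controls and of 0 in both AP1AR-DT_OE libraries. Its normalized read counts were 35.3 and 40.9 against 0 and 0, and the groups did not overlap. Its control mean was 3.04-fold the floor of 12 counts in each AP1AR-DT_OE library (fitted log2 fold change -7.63, SE = 1.88, adjusted p = 0.0371, DESeq2). That ratio allows for no counting error in the controls. The fitted value depends on the zeros and is no bound. The gene lies over the locus of CTD-2192J16.20 (ENSG00000269693) and of ZNF564, whose exons it shares in part on the same strand, and 55.8% of its exon windows of 150 bases occur in another gene.

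CTD-2192J16.20 had counts of 54 and 58 in control 1 and 2 and of 103 and 130 in AP1AR-DT_OE 1 and 2, and ZNF564 had 14 counts in control 2 and 0 in the other 3. The 3 genes together summed to 85 and 125 counts as control and to 103 and 130 as AP1AR-DT_OE. Their summed log2 fold change was 0.33 (SE = 0.61, adjusted p = 1.00, DESeq2), in the opposite direction to that of ZNF490. As normalized read counts the sums were 96.8 and 96.4 in control 1 and control 2, and 113.0 and 129.0 in AP1AR-DT_OE 1 and 2. Both AP1AR-DT_OE sums thus lay above both control sums, although the raw sums overlapped. In the fits without 1 library the log2 fold change of ZNF490 itself stayed between -7.74 and -7.51 while its SE rose to between 2.49 and 2.68, with adjusted p-values from 0.304 to 0.736 (DESeq2). In the blocked fit it was -7.63 (SE = 1.99, adjusted p = 0.0590, DESeq2).

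The ZNF223 entry ENSG00000267022 (chromosome 19, 44025354 to 44087318, GRCh38, band q13.31) had counts of 40 and 83 in the controls and of 0 in both AP1AR-DT_OE libraries. Its control mean was 4.37-fold the floor, again with no counting error allowed in the controls (fitted log2 fold change -8.16, SE = 1.78, adjusted p = 0.00428, DESeq2). The groups did not overlap. It spans ZNF222, the other ZNF223 entry (ENSG00000178386) and ZNF284, and 91.8% of its windows of 150 bases occur in another gene. ZNF222 had 15, 62, 11 and 19 counts in control 1, control 2, AP1AR-DT_OE 1 and AP1AR-DT_OE 2. The other ZNF223 entry had 0, 18, 5 and 52, and ZNF284 had 43, 0, 61 and 76.

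The called entry was at 0 in both AP1AR-DT_OE libraries, ZNF284 was at 0 in control 2 and the other ZNF223 entry was at 0 in control 1. The 4 genes together summed to 98 and 163 counts as control and to 77 and 147 as AP1AR-DT_OE, which overlap. Their summed log2 fold change was -0.04 (SE = 0.62, adjusted p = 1.00, DESeq2). Without control 1 the ZNF223 entry kept an adjusted p of 0.0311 and ZNF284 was called higher (log2 fold change 8.97, adjusted p = 0.0256). Without control 2, AP1AR-DT_OE 1 or AP1AR-DT_OE 2 the adjusted p of the ZNF223 entry was 0.269, 0.173 and 0.207 (DESeq2), and over all 4 such fits its log2 fold change lay between -8.38 and -7.88. In the blocked fit it was -8.14 (SE = 4.003, adjusted p = 1.00, DESeq2).

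**Figure D5:**
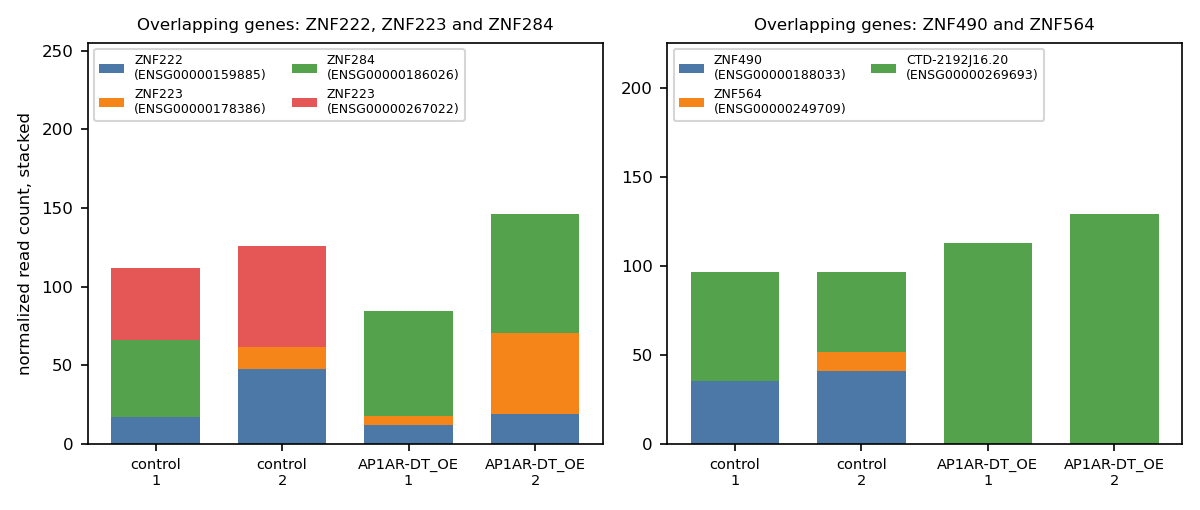
Normalized read counts of overlapping genes, stacked for each library, for the locus of ZNF222, ZNF223 and ZNF284 (left) and that of ZNF490 and ZNF564 (right). The called entries, ZNF223 (ENSG00000267022) and ZNF490, appear only in the controls. Over the 4 libraries the height of the stacks runs from 84.5 to 145.9 on the left, where the groups overlap. On the right both AP1AR-DT_OE stacks (113.0 and 129.0) stand above both control stacks (96.8 and 96.4).

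The third member with an unadjusted p under 0.05 was the ZNF177 entry ENSG00000188629 (adjusted p = 1.00, DESeq2), whose 48 counts all lay in control 2. Together with ZNF559 and the other ZNF177 entry (ENSG00000270011), with which it shares exons, it had 59, 226, 61 and 171 counts in control 1, control 2, AP1AR-DT_OE 1 and AP1AR-DT_OE 2, a log2 fold change of -0.03. Of the 246 members 56 shared exon sequence with another gene on the same strand and 57 with a gene on the opposite strand. By sequence, 167 members had no 150-base window in common with another gene, and 23 had over 20% of their windows in common.

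Above a mean of 50 no member was called (0 of 106, by DESeq2, and 0 also at an unadjusted p under 0.05). The median log2 fold change of these 106 was 0.03, with quartiles of -0.14 and 0.17, beside -0.02, -0.16 and 0.09 for all genes at that level. There 8 members had both AP1AR-DT_OE libraries above both controls and 3 had both below, 10.4% of the 106, where 9.45% of all genes at that level (5.11% above and 4.35% below) did not overlap. Over all 246 members the median log2 fold change was -0.06, or -0.01 with the bounds in place of fitted values at the floor, beside -0.03 for all genes. The median of the 106 depended on single libraries: it was -0.10 without control 1, 0.28 without control 2, 0.09 without AP1AR-DT_OE 1 and -0.07 without AP1AR-DT_OE 2.

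The members whose groups did not overlap are given by size, and none passed the test. ZNF536, a neural zinc finger gene known to hold back neuronal differentiation (chromosome 19, 30228290 to 30713538, band q12), stands alone in its stretch of the chromosome. Its normalized read count was 100.2 and 143 in control 1 and control 2, and 58.1 and 53.6 in AP1AR-DT_OE 1 and AP1AR-DT_OE 2, with both AP1AR-DT_OE libraries under both controls (log2 fold change -1.13, SE = 0.66, adjusted p = 1.00, DESeq2). The log2 ratio of AP1AR-DT_OE over control was -0.78 in number 1 and -1.40 in number 2. ZNF607 had 110.5 in control 1, 106 in control 2, 37.3 in AP1AR-DT_OE 1 and 84.4 in AP1AR-DT_OE 2 (log2 fold change -0.83, SE = 0.71), and its low value was that of AP1AR-DT_OE 1. ZNF667 had 64.9 and 90.3 in control 1 and control 2, and 61.4 and 57.6 in AP1AR-DT_OE 1 and AP1AR-DT_OE 2 (log2 fold change -0.39, SE = 0.71).

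On the other side, ZNF227 had 92.3 in control 1, 36.3 in control 2, 101 in AP1AR-DT_OE 1 and 171 in AP1AR-DT_OE 2 (log2 fold change 1.09, SE = 0.71, adjusted p = 1.00, DESeq2). Control 2 was its lowest library. ZNF586, ZNF772 and ZNF587B, all in the last run of the long arm, had log2 fold changes of 0.53, 0.53 and 0.45 with SEs of 0.74, 0.69 and 0.67, and normalized read counts between 41.0 and 116.3. Each of them overlaps another gene on the same strand, so that their counts are uncertain. With overlapping genes summed, the log2 fold change was 0.09 for the unit that holds ZNF586 and ZNF587B and 0.39 for that of ZNF772. ZNF473, known for its part in the 3′ end processing of histone transcripts, had 281 and 315 in control 1 and control 2, and 330.2 and 379 in AP1AR-DT_OE 1 and AP1AR-DT_OE 2 (log2 fold change 0.25, SE = 0.49), a difference smaller than its standard error. The other 3 of the 8 were ZNF428, ZNF599 and ZNF160, with log2 fold changes of 0.22, 0.21 and 0.20.

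Genes with a known role were read whatever their change. ZNF91 and ZNF93 are known to silence young retrotransposons of primates, and both stand near the centromere on the short arm. ZNF91 had 41.0 in control 1, 74.1 in control 2, 40.6 in AP1AR-DT_OE 1 and 33.7 in AP1AR-DT_OE 2, a level of 4.59 per kilobase, and ZNF93 had 14.8 and 31.6 in control 1 and control 2, and 15.4 and 22.8 in AP1AR-DT_OE 1 and AP1AR-DT_OE 2, at 3.79 per kilobase. Their log2 fold changes were -0.63 (SE = 0.83) and -0.29 (SE = 1.13), and neither passed the test. The groups overlapped for ZNF93, while for ZNF91, with a mean under 50, they did not, although control 1 and AP1AR-DT_OE 1 were nearly equal. ZNF274, which is known to bring SETDB1 to the 3′ ends of zinc finger genes, had 134 in control 1, 176 in control 2, 177 in AP1AR-DT_OE 1 and 129 in AP1AR-DT_OE 2 (log2 fold change -0.02, SE = 0.58).

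ZNF331, an imprinted gene, had 104 and 147 in control 1 and control 2, and 135 and 58.6 in AP1AR-DT_OE 1 and AP1AR-DT_OE 2 (log2 fold change -0.37, SE = 0.68). ZNF507, a gene considered in neurodevelopmental disorders, had 82.0 in control 1, 168 in control 2, 95.4 in AP1AR-DT_OE 1 and 108 in AP1AR-DT_OE 2 (log2 fold change -0.30, SE = 0.65). ZNF224, known as a repressor of aldolase A, was near the floor, with 9.11 and 12.3 in control 1 and control 2, and 4.39 and 6.95 in AP1AR-DT_OE 1 and AP1AR-DT_OE 2. All adjusted p-values of these genes were 1.00 (DESeq2). In ZNF274, ZNF331 and ZNF507 the groups overlapped.

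A few members had 1 library far from the other 3. ZNF146, whose protein consists almost wholly of zinc fingers (chromosome 19, 36214602 to 36238771, band q13.12), had 222 in control 1, 547 in control 2, 18.6 in AP1AR-DT_OE 1 and 377 in AP1AR-DT_OE 2 (log2 fold change -0.96, SE = 1.69, adjusted p = 1.00, DESeq2). Within AP1AR-DT_OE its log2 ratio of number 2 over number 1 was 4.27. With AP1AR-DT_OE 1 as the lone library of its group, the fitted log2 fold change was -4.38 with an adjusted p of 0.000951 (DESeq2), a call that rests on that library. ZNF146 shares exon sequence with a gene on the opposite strand.

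ZNF324B, singled out after its values were seen, had 846 and 427 in control 1 and control 2, and 55.9 and 458 in AP1AR-DT_OE 1 and AP1AR-DT_OE 2 (log2 fold change -1.31, SE = 0.75, adjusted p = 1.00, DESeq2), the lowest p among the 106. It too was lowest in AP1AR-DT_OE 1, and without AP1AR-DT_OE 2 its fitted log2 fold change was -3.52 with an adjusted p of 0.00380. ZNF134, low in control 2 as given above, had a log2 fold change of 0.93 (SE = 0.76, adjusted p = 1.00), and without control 1 it was 2.90 with an adjusted p of 0.00649 (DESeq2).

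The proteins through which KRAB zinc finger proteins are known to silence were listed beside their genes. Of 22 listed, 20 were measured. By DESeq2 0 were called in either direction and 0 reached an unadjusted p under 0.05. Their log2 fold changes ran from -0.94 (DAXX, a histone chaperone with between 0 and 29 counts) to 0.10. There were 7 above and 13 below 0, with a median of -0.09, and none had groups that did not overlap. Of all genes with a mean of at least 10, 0.197% were called and 12.2% had groups that did not overlap. edgeR's quasi-likelihood test also called 0, as it did over all genes.

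TRIM28, the co-repressor that KRAB domains bind, had 24137 in control 1, 12364 in control 2, 20544 in AP1AR-DT_OE 1 and 15603 in AP1AR-DT_OE 2 (log2 fold change -0.01, SE = 0.48). SETDB1, the histone methyltransferase, had 1942 and 993 in control 1 and control 2, and 1733 and 1418 in AP1AR-DT_OE 1 and AP1AR-DT_OE 2 (log2 fold change 0.10, SE = 0.49). The controls differed from each other by more than the groups did in both genes. CBX5, CBX1 and CBX3, the heterochromatin proteins, had log2 fold changes of 0.10, -0.02 and -0.21.

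Promoters were examined because the study examined the binding of NRF1 at a promoter in these cells. NRF1 is a transcription factor that binds a GC-rich palindrome. The letters GCGCATG, which are part of that palindrome, were searched on both strands in RefSeq promoters (GRCh38.p14) from 250 bases before to 50 after the start of transcription. Of 208 members with a promoter in the table, 11 held them (5.29%), beside 4.43% of 35116 promoters in all, 10.4% of 288 promoters of ZNF genes on other chromosomes and 6.98% of 1662 promoters of other chromosome 19 genes. ZNF653, the named member among the 11, held them at chr19:11505894-11505963 on the minus strand, where capitals mark the match and its overlapping copy on the other strand.
ZNF653: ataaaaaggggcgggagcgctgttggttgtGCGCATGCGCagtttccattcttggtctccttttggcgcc
The members' promoters had a median GC content of 59.8%, against 58.7% for all promoters, although their transcripts were poor in GC. The 11 genes were ZNF699, ZNF653, ZNF302, ZNF585A, ZNF585B, ZNF540, ZNF576, ZNF285, ZNF175, ZNF415 and ZNF444. Of these, 0 were called and 0 had groups that did not overlap, beside 0.137% and 13.7% of all genes. The median log2 fold change of the 11 was -0.00363, against -0.05 in the 197 members without a match. A match of letters is a description of the window and shows no binding.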

How the data were processed

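RNA-seq was performed on 4 libraries of SK-N-SH cells, grouped by their titles. The authors deposited 1 table of whole-number read counts per gene with no normalization, made by aligning reads to hg19 with HISAT2 and taking counts from StringTie, per the paper's methods; the labels list other tools. The annotation and the strand of counting are not given in the sources used here. Counts of 4 were more frequent (3287 entries) than counts of 3 (2136) or 5 (1509), so a read pair was taken as 4 counts. The table's columns of the authors' DESeq2 and edgeR fold changes and p-values were not used. Its coordinates are GRCh38: 216 of 237 members matched by symbol start within 10 kb of the RefSeq start.

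Counts were fitted over all 24014 genes with DESeq2 1.42.0 (R 4.3.3; two-sided Wald test, no covariate, Benjamini-Hochberg adjustment). edgeR 4.0.16 served as an alternative. Exon length, GC content and coding sequences came from GENCODE v44 on GRCh37, and log2 ratios between libraries used a pseudocount of 1. GC content was found for 23954 genes. The procedure was tested on simulated counts.

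The members and gene lists were chosen with earlier results of these data known. Members were named if called, if among the 5 largest rises or falls without overlap at a mean of at least 50, if among the 8 highest per kilobase, the highest of a run of at least 5, or the 3 highest or lowest in the ratio of the controls, or if of known role. The alternatives were TMM factors, a minimum of 10 counts in 2 or more libraries, leaving out independent filtering, the replicate number as a block, a GC correction (lowess, span 0.3), both together, counts divided by 4, summed overlapping genes, an absolute log2 fold change of at least 1, and leaving out each library. The edgeR test with the block and the DESeq2 test without a library were added after seeing the data. Depth was 21988065 to 26184599 counts per library, and the precision of low values is that of their read pairs.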

Additional observations from a re-analysis of the deposited data

How the results depend on the processing

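The count of 2 called members was also 2 with TMM factors, the filter on low counts, no independent filtering, the GC correction and an absolute log2 fold change of at least 1. It was 0 with the edgeR quasi-likelihood test, with counts divided by 4 and with overlapping genes summed, and from 0 to 3 when 1 library was left out. ZNF490 had a log2 fold change of 0.33 once overlapping genes were summed, the reverse of -7.63, by the sum of its counts with those of 2 other genes. For the other changes the cause was not tested. The median log2 fold change of all members ran from -0.42 to 0.33 without 1 library, and that of members with a mean of at least 50 from -0.10 to 0.28. The silencing factors gave 0 calls under all 14 alternatives run. For the ratio of number 2 over number 1, the median over members was 0.038 in the controls after the GC correction, 0.74 in the controls and 0.39 in AP1AR-DT_OE at a mean of at least 10, and -0.59 and -0.30 at a mean of at least 200. The median level was 9.88 per kilobase by the longest transcript in place of 7.25 by the union of exons, with 8 of the 8 highest members shared.

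With the replicate number as a block, 0 members were called by DESeq2 (4 at an unadjusted p under 0.05). The edgeR test with the block called 1 of 216 (11 at an unadjusted p under 0.05). DESeq2 with the block and the GC correction called 1 (2 at an unadjusted p under 0.05). The shares of all genes at that unadjusted threshold are not given for these fits. Over all genes these fits called 37, 44 and 60, in the same order. The deviations of the number 2 libraries correlated at 0.412 over 16730 genes and 0.261 over 213 members, but with only 2 pairs and no label for the numbers this does not show a pairing.

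Of 39 named members, 21 changed the sign of their log2 fold change when 1 library was left out. With 2 libraries per group and a read pair worth about 4 counts, members under a mean of 50 cannot be read closely.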
